A study of Homo sapiens with 10 samples.

Results

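The RNA of 10 genes of the dense-core secretory granule and of neuroendocrine cells was followed in QGP-1 cells, an established human pancreatic neuroendocrine tumor line. The genes are the granins CHGA, CHGB, SCG2, SCG3 and VGF, the prohormone convertases PCSK1 and PCSK2, the convertase chaperone SCG5, the carboxypeptidase CPE and the vesicle protein SYP. They were matched by gene name, each name matched 1 of the 35606 genes listed, and all 10 were above 1 CPM in every sample, so none was set aside. The 10 genes were chosen with earlier results of these data known, so they are not a blind choice. The study asked how blocking the lipid kinase PIKfyve or the kinase mTOR changes these tumor cells, and RNA sequencing covered 10 samples, 2 in each of 5 groups. In the knockdown experiment, cells with the non-targeting guide sgNC were compared with cells carrying sgPIKFYVE-1, a single guide that silences PIKFYVE by CRISPR interference. Cells of both groups carried the lentiviral dCas9-KRAB repressor with the guide and were selected with puromycin, and isolation of single-cell clones is not mentioned in the study's methods for these lines. In the drug experiment, cells without an edit, labelled WT, received the solvent DMSO, 1 µM apilimod, a PIKfyve inhibitor, or 100 nM Torin-1 (Torin1 in the labels), an inhibitor of both mTOR complexes. The labels give 24 h for both drugs, and the study's legends give a shorter time. No label says that the 2 samples of a group were separate cultures, so the p-values measure the spread between these samples, which may be technical.

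Neuroendocrine cells store peptide hormones in dense-core granules and release them when calcium rises. Granins are acidic proteins that aggregate with prohormones in the trans-Golgi network, help a granule to form and are themselves cut into peptides. PCSK1 and PCSK2 cut prohormones at paired basic residues inside the granule, SCG5 (also called 7B2) escorts PCSK2, and CPE trims the basic residues left at the cut ends. Chromogranin A, the product of CHGA, and synaptophysin, the product of SYP, are the proteins pathologists stain to name a tumor neuroendocrine, and QGP-1 cells are used as a model of such tumors.

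Promoter sequences are shown because several granule genes are textbook targets of cyclic AMP signaling, which acts through the cyclic AMP response element (CRE), and because the genes that hold it did not change alike in these data. The palindrome TGACGTCA was searched on both strands in RefSeq promoters of assembly GRCh38.p14, 250 bases before to 50 bases after each start, and 10 entries matched 8 of the 10 genes. CHGB and SCG2 had no entry, so their promoters were not searched. The palindrome was found in 3 entries, those of VGF, PCSK1 and CHGA, and in 1.85% of all 35116 promoters, 649 in number. Capitals mark TGACGTCA, or the shorter motif TGACG and its reverse complement where the palindrome is missing or outside it, and every palindrome also holds the shorter motif on both strands. All are written 5′ to 3′ in the direction of transcription.
VGF, chr7:101165520-101165819, minus strand: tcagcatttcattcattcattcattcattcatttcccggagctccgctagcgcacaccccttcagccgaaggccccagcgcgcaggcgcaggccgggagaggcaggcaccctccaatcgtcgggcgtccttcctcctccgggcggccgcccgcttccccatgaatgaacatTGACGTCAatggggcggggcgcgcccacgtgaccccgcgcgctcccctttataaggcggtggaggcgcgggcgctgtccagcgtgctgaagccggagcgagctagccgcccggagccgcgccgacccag
PCSK1, chr5:96433199-96433498, minus strand: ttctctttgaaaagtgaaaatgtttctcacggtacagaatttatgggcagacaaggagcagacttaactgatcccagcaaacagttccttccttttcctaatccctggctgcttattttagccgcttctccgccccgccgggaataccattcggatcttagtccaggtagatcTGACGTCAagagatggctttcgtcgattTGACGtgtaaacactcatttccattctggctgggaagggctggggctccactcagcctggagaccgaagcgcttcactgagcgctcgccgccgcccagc
CHGA, chr14:92922900-92923199, plus strand: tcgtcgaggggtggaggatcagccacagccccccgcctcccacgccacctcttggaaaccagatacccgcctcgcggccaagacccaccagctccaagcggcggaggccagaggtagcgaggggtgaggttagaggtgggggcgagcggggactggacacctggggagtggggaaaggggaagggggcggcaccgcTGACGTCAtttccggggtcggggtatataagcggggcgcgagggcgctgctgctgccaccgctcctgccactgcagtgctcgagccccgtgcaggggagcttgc
CPE, chr4:165378758-165379057, plus strand: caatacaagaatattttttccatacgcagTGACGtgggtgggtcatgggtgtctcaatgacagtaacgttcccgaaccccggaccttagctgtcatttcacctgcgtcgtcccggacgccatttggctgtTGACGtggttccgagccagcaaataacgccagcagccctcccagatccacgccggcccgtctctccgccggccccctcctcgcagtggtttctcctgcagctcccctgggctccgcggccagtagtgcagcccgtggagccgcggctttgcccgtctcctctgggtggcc
PCSK2, chr20:17225857-17226156, plus strand: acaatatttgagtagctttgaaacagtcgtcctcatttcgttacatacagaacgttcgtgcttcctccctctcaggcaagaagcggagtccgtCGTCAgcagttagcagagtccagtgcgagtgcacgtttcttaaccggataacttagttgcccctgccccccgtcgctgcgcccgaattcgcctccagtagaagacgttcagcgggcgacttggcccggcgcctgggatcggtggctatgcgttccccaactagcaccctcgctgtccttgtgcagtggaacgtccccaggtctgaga
The palindrome starts 79 bases before the start of VGF, 77 bases before that of PCSK1 and 54 bases before that of CHGA. The shorter motif was in 8 entries of 7 genes and in 24.6% of all promoters. CPE and PCSK2 are shown as promoters that hold only the shorter motif. The letters TATAAA, searched on the sense strand, were in 1 entry, a second promoter of PCSK1, and in 7.33% of all promoters. Only these exact letters were searched, so variants such as TATAAG, present in the VGF and CHGA sequences shown, were not counted. A match describes the letters and not a binding site.

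The 10 genes lie apart from each other. In GENCODE release 29 on GRCh38, CHGA is at chr14:92923080-92935293, CHGB at chr20:5911430-5925361, SCG2 at chr2:223596940-223602503, SCG3 at chr15:51681353-51721031 and VGF at chr7:101162509-101165593. PCSK1 is at chr5:96390415-96434143, PCSK2 at chr20:17226107-17484578, SCG5 at chr15:32641676-32697098, CPE at chr4:165361194-165498320 and SYP at chrX:49187804-49200259. Antisense genes touch exons of SCG3, SCG5, PCSK1 and SYP, and none of these antisense genes is listed among the genes measured, so their levels are unknown. The sources used here do not say whether strand was used in counting. Reads of SCG3, SCG5, PCSK1 and SYP and of their antisense partners therefore cannot be told apart.

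The series as a whole set the scale for the 10 genes. Values are in CPM, counts divided by the size of the library after TMM scaling, normalized in the knockdown table and in the drug table separately, and levels in one table were not tested against the other. Depth was estimated as 9.3 to 13.6 M reads per sample, with both sgPIKFYVE-1 samples, at 9.3 and 9.48 M, below both sgNC samples, at 10.6 and 11.4 M. The targeted gene followed its label, with PIKFYVE at 100.7 and 97.5 CPM with sgNC and at 10.8 and 12.5 CPM with sgPIKFYVE-1 (limma, log2 fold change -2.98, adjusted p = 1.22e-14). Of the genes tested, 42.5% passed an adjusted p of 0.05 in the knockdown, 8.54% with apilimod and 38.5% with Torin-1, so a call by itself was common in 2 of the 3 comparisons. The groups of 2 samples did not overlap for 70.6%, 50.7% and 69.3% of genes. All samples are bulk RNA, in which fewer cells of a kind and less RNA per cell cannot be told apart.

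The granule genes spanned a wide range of levels in QGP-1 cells. By mean CPM among the 35606 genes listed, they ranked from 6 (VGF) to 806 (SYP) with sgNC. With DMSO they ranked from 11 (SCG2) to 1270 (SYP). On the scale of CPM per kilobase of exon, VGF was highest with sgNC, at 2310 ± 32 (SD, n = 2), ahead of SCG2 at 1170 ± 29. CHGB and CPE followed at 558 ± 17 and 539 ± 14, and the samples of these neighbours overlapped. SCG3 came next at 230 ± 3.1, then CHGA at 139 ± 9.8, while SCG5 at 116 ± 9.9 and PCSK1 at 112 ± 0.55 overlapped. PCSK2 at 72.8 ± 2.4 and SYP at 39.1 ± 2.6 were lowest. With DMSO the order began with SCG2 at 1490 ± 11 and VGF at 1160 ± 58 per kilobase, and again ended with PCSK2 at 32.8 ± 0.69 and SYP at 29.4 ± 0.19. PCSK1, at 165 ± 4.5, stood above CHGA, at 137 ± 2.8, and no neighbours overlapped with DMSO. All 10 genes were thus present in both tables, far above the level of 3 reads, 0.227 to 0.329 CPM. Of 15 other neuroendocrine markers, 3 averaged under 1 CPM in the knockdown table and 4 in the drug table. SLC18A2, SSTR3 and SSTR5 were under 1 CPM in every sample.

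**Figure D1:**
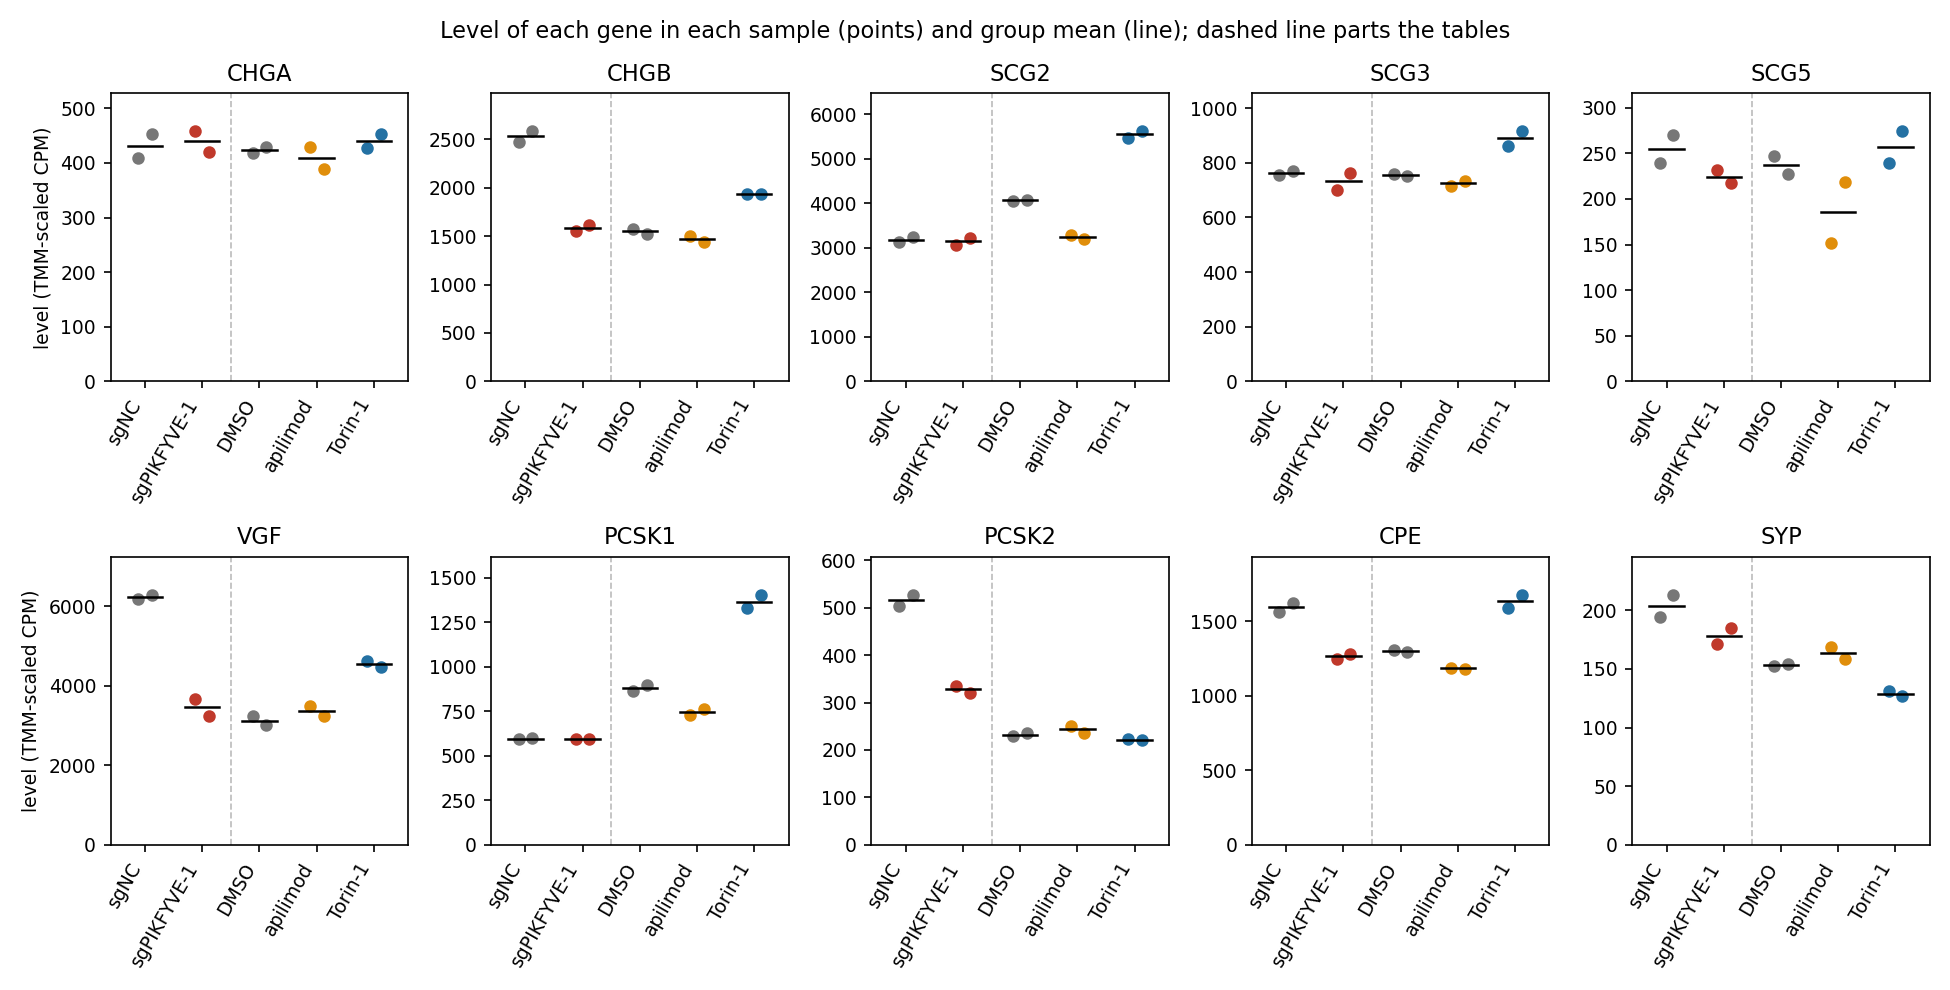
Level of each of the 10 genes in each sample, in TMM-scaled CPM on a linear axis that starts at 0; points are the 2 samples of a group, the short line is their mean, and the dashed line parts the tables, which were normalized separately. VGF stands at 6175 and 6297 CPM in the sgNC samples and at 3681 and 3249 CPM in those with sgPIKFYVE-1, while the samples of CHGA overlap between every treated group and its control.

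With PIKFYVE silenced, 6 of the 10 genes fell and none rose, beside 20.9% of all genes lower and 21.6% higher. VGF, CHGB and PCSK2 fell most, CPE fell by less, and SYP and SCG5 fell little. CHGA, SCG2, SCG3 and PCSK1 did not pass the test. The groups of 2 samples did not overlap for the 6 genes called, beside 70.6% of all genes. The median log2 fold change was -0.19 over the 10 genes and -0.0042 over all genes tested, and that of the 10 was -0.11 without sgNC replicate 2 and -0.26 without sgNC replicate 1. Means of VGF, CHGB, PCSK2 and CPE were 6236, 2531, 515.5 and 1593 CPM with sgNC. With sgPIKFYVE-1 they were 3465, 1587, 328 and 1264 CPM, and with DMSO, normalized separately, 3129, 1549, 232 and 1300 CPM. SCG2 and PCSK1 were instead higher with DMSO, at 4064 and 878 CPM, than with sgNC, at 3182 and 595.6 CPM. The part of the sgNC level in these decreases was not tested.

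Among the granins, VGF, whose peptides act in energy balance, was at 6175 and 6297 CPM with sgNC and at 3681 and 3249 CPM with sgPIKFYVE-1. Both knockdown samples lay far below both controls, a log2 fold change on log2(CPM + 1) of -0.85 (95% confidence interval -0.95 to -0.75, adjusted p = 2.67e-11). CHGB, the chromogranin B gene, was at 2477 and 2586 CPM with sgNC and at 1555 and 1619 CPM with sgPIKFYVE-1. Its mean fell by 37.3% (log2 fold change -0.67 ± 0.039 SE, adjusted p = 6.25e-11), and that of VGF fell by 44.4%. SCG2, the secretogranin II gene, was at 3126 and 3238 CPM with sgNC and at 3068 and 3222 CPM with sgPIKFYVE-1. The groups overlapped, and the interval of the log2 fold change ran from -0.097 to 0.063 (adjusted p = 0.752). CHGA was at 409.7 and 453 CPM with sgNC and at 458 and 421 CPM with sgPIKFYVE-1, again overlapping (interval -0.082 to 0.14, adjusted p = 0.704). Its fitted value of 0.03 turned negative when all samples were rescaled to 1 common total or quantile normalized. SCG3, which ties granins to the granule membrane, was at 756 and 770.5 CPM with sgNC and at 701 and 764 CPM with sgPIKFYVE-1 (interval -0.15 to 0.033, adjusted p = 0.298).

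Of the convertases, PCSK2 fell and PCSK1 did not pass the test. PCSK1, the convertase that acts early on prohormones, was at 594 and 598 CPM with sgNC and at 594 CPM in both samples with sgPIKFYVE-1. The interval of its log2 fold change, -0.090 to 0.081, lay closely around 0 (adjusted p = 0.944). PCSK2, which cuts later in the pathway, was at 503 and 528 CPM with sgNC and at 336 and 321 CPM with sgPIKFYVE-1. Both knockdown samples lay below both controls, with a log2 fold change of -0.65 (interval -0.75 to -0.55, adjusted p = 1.19e-09). SCG5, the PCSK2 chaperone, was at 239 and 270.1 CPM with sgNC and at 232 and 217 CPM with sgPIKFYVE-1 (log2 fold change -0.18 ± 0.058 SE, adjusted p = 0.0178). CPE was at 1565 and 1622 CPM with sgNC and at 1249 and 1280.2 CPM with sgPIKFYVE-1. The mean of this exopeptidase RNA fell by 20.6%, with no overlap (log2 fold change -0.33 ± 0.039 SE, adjusted p = 1.02e-06). SYP was at 194 and 213 CPM with sgNC and at 171 and 185 CPM with sgPIKFYVE-1 (log2 fold change -0.19 ± 0.058 SE, adjusted p = 0.0114). The calls of SCG5 and SYP rested on single samples: without sgNC replicate 2 neither passed (adjusted p = 0.338 and 0.192), nor did SCG5 without sgPIKFYVE-1 replicate 2 (0.151) or SYP without sgPIKFYVE-1 replicate 1 (0.119).

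With apilimod SCG2, PCSK1 and CPE fell, none of the 10 rose, and the background was 2.79% of genes lower and 5.75% higher. The groups did not overlap for 7 of the 10 genes, beside 50.7% of all genes, and the median log2 fold change was -0.07 over the 10 and -0.0057 over all genes. SCG2 was at 4043 and 4084 CPM with DMSO and at 3289 and 3187 CPM with apilimod. Its mean fell by 20.3%, with the lowest adjusted p of the 10 genes (log2 fold change -0.33, interval -0.40 to -0.26, adjusted p = 7.21e-06). PCSK1 was at 861 and 895 CPM with DMSO and at 730.4 and 759.95 CPM with apilimod (log2 fold change -0.24 ± 0.042 SE, adjusted p = 0.00222). CPE was at 1309 and 1290.8 CPM with DMSO and at 1189 and 1182 CPM with apilimod (log2 fold change -0.13 ± 0.037 SE, adjusted p = 0.0415). Both apilimod samples lay below both controls for each of these genes, but the call of CPE was lost when any 1 sample of the comparison was left out (adjusted p = 0.148 to 0.283) and that of PCSK1 without DMSO replicate 2 (adjusted p = 0.0577). Quantile normalization gave CPE a log2 fold change of -0.25.

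SCG5 had the most negative fitted value with apilimod and did not pass the test. It was at 247 and 228 CPM with DMSO and at 152 and 219 CPM with apilimod, so the apilimod samples stood far apart from each other (log2 fold change -0.38, interval -0.64 to -0.12, adjusted p = 0.0711). Without apilimod replicate 1 the log2 fold change was -0.11 (adjusted p = 0.554) and without apilimod replicate 2 it was -0.64 (adjusted p = 0.000252), so its size rested on which of these samples was kept, and it passed also after quantile normalization (adjusted p = 0.0455) and with all samples rescaled to 1 common total (adjusted p = 0.0454). VGF was at 3239.7 and 3019 CPM with DMSO and at 3488 and 3235 CPM with apilimod, overlapping (log2 fold change 0.10, interval 0.013 to 0.19, adjusted p = 0.167). CHGB was at 1574 and 1524 CPM with DMSO and at 1503 and 1442 CPM with apilimod (interval -0.15 to 0.0037, adjusted p = 0.26). PCSK2 was at 229 and 236 CPM with DMSO and at 252 and 235 CPM with apilimod (interval -0.046 to 0.18, adjusted p = 0.53). The intervals for VGF, CHGB and PCSK2 thus held none of the decreases of 0.65 or more on the log2 scale measured for the same genes in the knockdown, though the difference between the experiments was not tested. CHGA was at 417 and 429 CPM with DMSO and at 429.8 and 389 CPM with apilimod (adjusted p = 0.669). SCG3, at 758 and 752 CPM with DMSO, was at 717 and 732 CPM with apilimod (adjusted p = 0.459), and SYP, at 153 and 154 CPM with DMSO, was at 169 and 158 CPM (adjusted p = 0.419).

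Torin-1 raised most of the genes. PCSK1, VGF, SCG2, CPE, CHGB and SCG3 rose, beside 16.6% of all genes, and SYP fell, beside 21.8% of all genes. CHGA, SCG5 and PCSK2 did not pass the test. The groups did not overlap for 8 of the 10 genes, beside 69.3% of all genes, and the median log2 fold change was 0.28 over the 10 and -0.012 over all genes. Each of these 7 calls held when any 1 sample of the comparison was left out.

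PCSK1 rose most, from 861 and 895 CPM with DMSO to 1327 and 1404 CPM with Torin-1. The mean was 55.5% higher (log2 fold change 0.64, interval 0.55 to 0.73, adjusted p = 7.54e-08), in the same cells in which its partner PCSK2 was at 229 and 236 CPM with DMSO and at 223 and 221 CPM with Torin-1 (log2 fold change -0.07, interval -0.18 to 0.047, adjusted p = 0.352). VGF rose from 3239.7 and 3019 CPM to 4614 and 4476 CPM with Torin-1 (log2 fold change 0.54 ± 0.042 SE, adjusted p = 3.73e-07), a change of 0.33 after quantile normalization, which also passed. SCG2, already the most abundant of the 10 per kilobase with DMSO, rose from 4043 and 4084 CPM to 5468 and 5622 CPM (log2 fold change 0.45 ± 0.031 SE, adjusted p = 1.30e-07). CHGB rose from 1574 and 1524 CPM to 1939.7 and 1931 CPM (log2 fold change 0.32 ± 0.036 SE, adjusted p = 1.17e-05). SCG3 rose least of those called, from 758 and 752 CPM to 862 and 916 CPM (log2 fold change 0.23 ± 0.041 SE, adjusted p = 0.000538). CHGA, whose palindrome is the nearest to its start of the 3 found, was at 417 and 429 CPM with DMSO and at 427 and 453 CPM with Torin-1. Its groups overlapped, and the interval of -0.060 to 0.17 held no rise as large as that of SCG3 (adjusted p = 0.451).

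CPE rose from 1309 and 1290.8 CPM with DMSO to 1590.3 and 1679 CPM with Torin-1 (log2 fold change 0.33 ± 0.037 SE, adjusted p = 1.29e-05). SCG5 was at 247 and 228 CPM with DMSO and at 239.6 and 274 CPM with Torin-1, overlapping (interval -0.14 to 0.37, adjusted p = 0.491). SYP fell from 153 and 154 CPM with DMSO to 131 and 127 CPM with Torin-1. Both Torin-1 samples lay below both controls (log2 fold change -0.25, interval -0.38 to -0.13, adjusted p = 0.00356). SYP, a vesicle membrane gene, thus changed in the opposite direction to the 6 genes that rose.

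**Figure D2:**
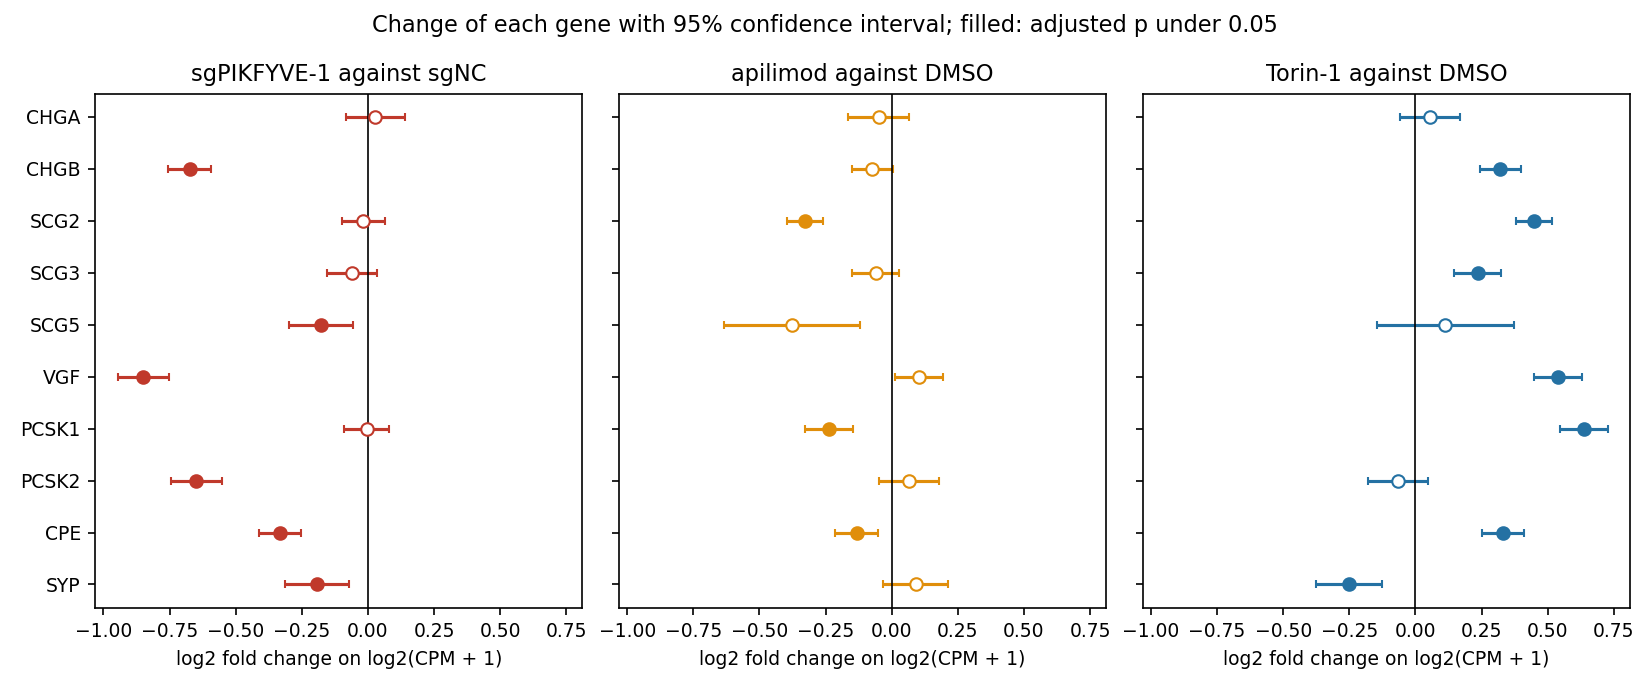
Log2 fold change of each gene on log2(CPM + 1) in each comparison with its own control; bars are 95% confidence intervals from limma and filled points passed an adjusted p of 0.05. The 6 genes called in the knockdown lie below 0, from VGF at -0.85 to SCG5 at -0.18, and with Torin-1 6 genes lie above 0 and SYP lies below at -0.25.

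Apilimod and Torin-1 were compared directly as well, in a contrast of their means in which the DMSO samples enter only the shared estimate of the spread. Of the 10 genes, 7 were higher with Torin-1, beside 20.5% of all genes, SYP was lower, beside 26.2% of all genes, and the contrast called 46.7% of all genes. The groups did not overlap for 9 genes, beside 72.5% of all genes. PCSK1 differed most, by 0.87 on the log2 scale (interval 0.78 to 0.96, adjusted p = 1.22e-09), and its mean was 83.2% higher with Torin-1. SCG2 differed by 0.78 (interval 0.71 to 0.84, adjusted p = 1.82e-10). SCG5 at 0.49, CPE at 0.46, VGF at 0.44, CHGB at 0.39 and SCG3 at 0.29 followed, and SYP was at -0.34 (largest adjusted p of these 6 genes 0.00408, that of SCG5). The value of SCG5 was 0.23 without apilimod replicate 1 (adjusted p = 0.0412) and 0.75 without apilimod replicate 2. VGF was at 0.24 after quantile normalization and still passed. PCSK2 was at -0.13 (interval -0.25 to -0.019, adjusted p = 0.0529) and CHGA at 0.10 (interval -0.010 to 0.22, adjusted p = 0.124). CHGA passed after quantile normalization (0.21, adjusted p = 0.00384), with all samples rescaled to 1 common total (0.17, adjusted p = 0.0157) and without apilimod replicate 1 (0.18, adjusted p = 0.0289). PCSK2 passed without apilimod replicate 2 (-0.18, adjusted p = 0.0321). The comparisons of both drugs with DMSO share their control samples, so their values stand side by side and are not independent.

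The balance of the convertases is given as a ratio per sample, with no test. The ratio of PCSK1 to PCSK2 in CPM was 1.18 and 1.13 with sgNC and 1.77 and 1.85 with sgPIKFYVE-1, where PCSK2 was lower and PCSK1 was not. It was 3.77 and 3.8 with DMSO and 5.96 and 6.36 with Torin-1, where PCSK1 was higher and PCSK2 was not called. With apilimod it was 2.9 and 3.24, below both DMSO samples. No group overlapped its control, but an exact permutation test of 2 samples against 2 cannot go below a two-sided p of 0.333, so none was run. The 10 genes together took 1.62% and 1.66% of a sample's total with sgNC and 1.18% and 1.16% with sgPIKFYVE-1. Their share was 1.28% and 1.26% with DMSO, 1.16% and 1.13% with apilimod and 1.73% in both samples with Torin-1. VGF and SCG2 made up much of these sums.

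**Figure D3:**
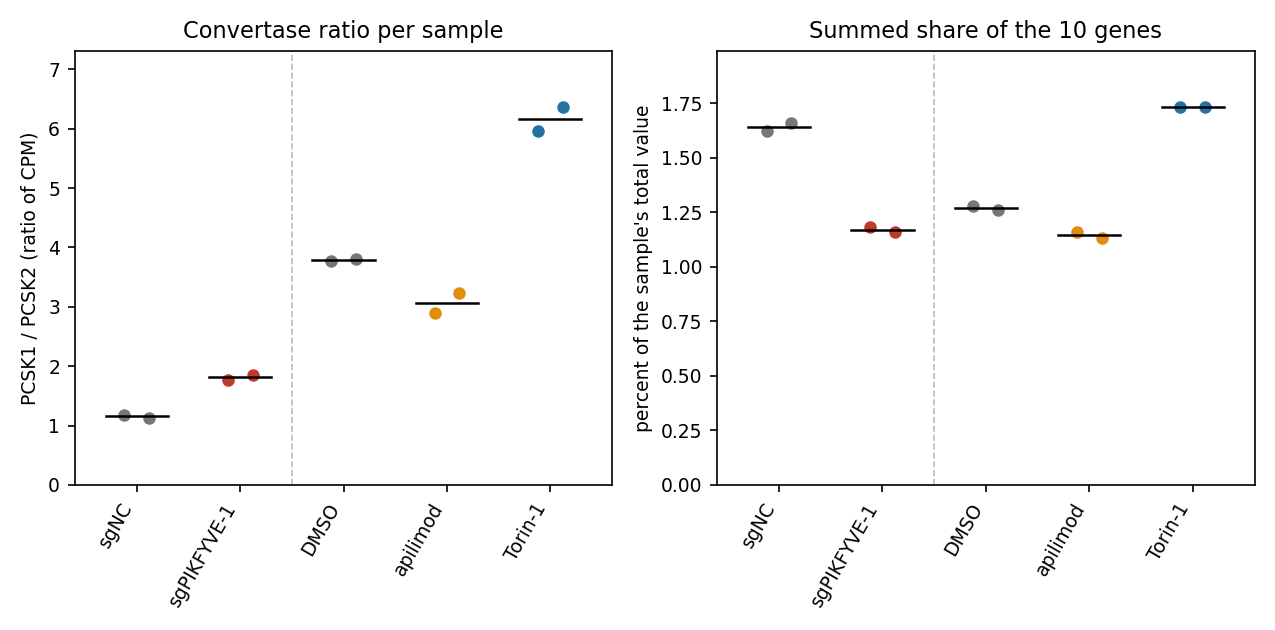
Left, the ratio of PCSK1 to PCSK2 (CPM over CPM) in each sample; right, the summed share of the 10 genes as a percentage of the sample's total. Points are samples, lines are group means and the dashed line parts the separately normalized tables; the share is lowest, between 1.13% and 1.18%, in the samples with sgPIKFYVE-1 and with apilimod, and the ratio is highest with Torin-1, at 5.96 and 6.36.

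The hormone cargo was read from a list of 21 peptide hormone genes, 7 of which reached a mean of 1 CPM in each table. Insulin, glucagon and pancreatic polypeptide (INS, GCG and PPY) were listed at 0 in both groups of the knockdown. With PIKFYVE silenced, 5 of the 7 fell and none rose, beside 20.9% and 21.6% of all genes, with a median log2 fold change of -0.68. CALCA, which encodes calcitonin and CGRP, was at 5664 and 5713 CPM with sgNC and at 2618 and 2510 CPM with sgPIKFYVE-1 (log2 fold change -1.15, adjusted p = 8.58e-15). NTS, the neurotensin gene, was at 1931 and 1970 CPM with sgNC and at 977 and 1093 CPM with sgPIKFYVE-1 (-0.92, adjusted p = 7.74e-12), and UCN3, the urocortin 3 gene of islet cells, fell by 0.86 on the log2 scale. With apilimod 3 of the 7 fell and none rose, beside 2.79% and 5.75% of all genes: NTS (-0.35), SST, the somatostatin gene (-0.25), and CALCA (-0.12). With Torin-1 2 rose, NTS (0.30) and CALCA (0.11), and CALCB fell (-0.55), beside 16.6% higher and 21.8% lower of all genes. CALCA and CALCB are close copies of each other, so counting may split reads between them. Between the drugs, 5 of the 7 were higher and 1 was lower with Torin-1, beside 20.5% and 26.2% of all genes. NTS (0.64) and CALCB (-0.49) were among them, as was TAC1 (0.78), which was under 1 CPM in both apilimod samples and passed the filter only through the other groups.

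Of 12 other genes of cargo processing and the granule membrane, 11 were tested, and 5 rose and 2 fell in the knockdown, beside 21.6% and 20.9% of all genes. SCGN, which encodes the calcium sensor secretagogin, stood at 3.71 and 4.28 CPM in the controls and rose to 20.7 and 20.3 CPM with sgPIKFYVE-1 (log2 fold change 2.11, adjusted p = 5.68e-09), and CPD, a carboxypeptidase of the Golgi, rose by 0.52. SCAMP5, a vesicle membrane protein gene, rose by 0.33. With apilimod SCGN rose (0.85) and PAM, which amidates peptides, fell (-0.19), beside 5.75% and 2.79% of all genes. With Torin-1 4 rose and 2 fell, beside 16.6% and 21.8% of all genes, among them PAM (0.41), SCGN (-0.62) and SCAMP5 (-0.39). Between the drugs, 3 were higher with Torin-1 and 2 lower, beside 20.5% and 26.2% of all genes, with SCGN at -1.48, PAM at 0.60 and SCAMP5 at -0.54.

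The exocytosis machinery was measured by 25 genes, 24 of them tested, and most of those called rose in the knockdown and with apilimod. In the knockdown 10 rose and 5 fell, beside the 21.6% and 20.9% of all genes. RAB27B, a small GTPase that docks granules, rose from 14.6 and 14.8 CPM to 52.6 and 63.1 CPM (log2 fold change 1.91, adjusted p = 5.22e-11), RAB3A rose by 0.62 and RPH3AL, which encodes a RAB effector, fell (-0.89). With apilimod 8 rose and 2 fell, beside 5.75% and 2.79% of all genes, with SV2A, a vesicle membrane protein gene, at 0.82, RAB3B at 0.82 and RAB27B at 0.66. The median over the 24 genes was 0.21 with apilimod and 0.03 in the knockdown. With Torin-1 5 rose and 13 fell, beside 16.6% and 21.8% of all genes, and the median was -0.24. RAB27B fell from 14.7 and 14.8 CPM with DMSO to 3.91 and 6.64 CPM with Torin-1 (-1.36, adjusted p = 5.13e-05), whereas SNAP25, a SNARE protein gene, rose (0.81), as did SYT13, a synaptotagmin gene (0.65). Between the drugs, 16 of the 24 were lower and 5 higher with Torin-1, beside 26.2% and 20.5% of all genes, with RAB27B at -2.02, SV2A at -1.17 and RAB3B at -1.16. SYP, the vesicle protein among the 10 genes, thus fell with Torin-1 as most of the exocytosis genes called did.

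Of 15 other neuroendocrine markers, 12 were tested in the knockdown, where 3 rose and 3 fell, beside 21.6% and 20.9% of all genes, with DDC, the aromatic amino acid decarboxylase gene, at 1.37, and L1CAM, an adhesion molecule gene, at -0.57. SSTR1, a somatostatin receptor gene, is among the 3, but at 0.93 and 0.96 CPM with sgNC and 2.74 and 4.53 CPM with sgPIKFYVE-1 it passed the filter only through the group in which it was high. Among the drug samples 11 were tested, and with apilimod 1 rose and 3 fell, beside 5.75% and 2.79% of all genes, among them SLC18A1, a vesicular monoamine transporter gene (-0.50), UCHL1 (-0.45) and INSM1, a neuroendocrine transcription factor gene (-0.28). With Torin-1 4 rose and 3 fell, beside 16.6% and 21.8% of all genes. SLC18A1 rose by 0.98, TPH1, the tryptophan hydroxylase gene of serotonin synthesis, by 0.91 (from 1583 and 1591 CPM to 2923 and 3039 CPM, adjusted p = 5.94e-10) and INSM1 by 0.84. Between the drugs 4 were higher and 4 lower with Torin-1, beside 20.5% and 26.2% of all genes, led by SLC18A1 (1.48), INSM1 (1.12) and TPH1 (1.02).

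**Figure D4:**
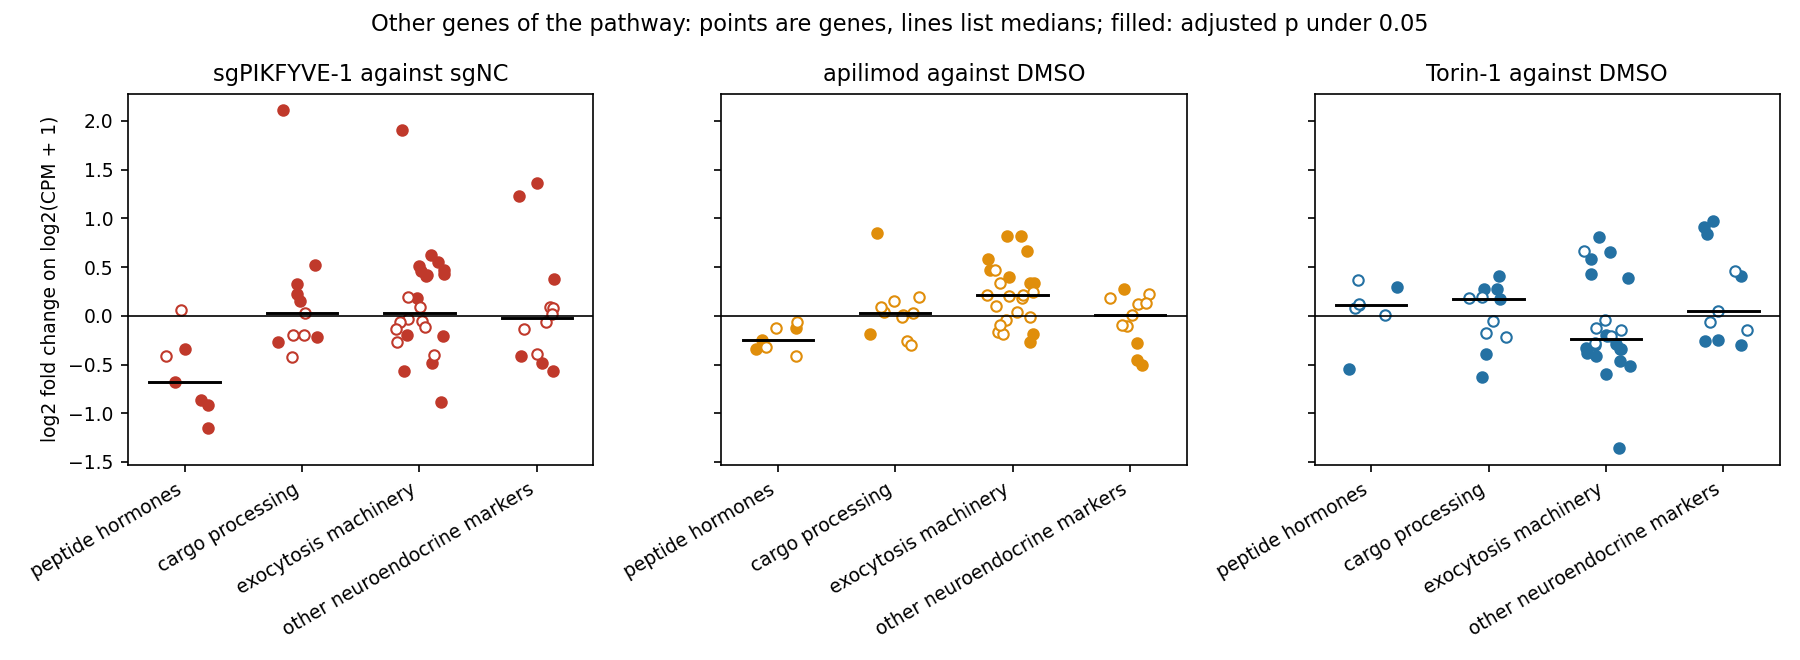
Log2 fold change on log2(CPM + 1) of the other genes of the pathway by list, for each comparison with its control; each point is a gene that averaged 1 CPM or more, filled where the adjusted p was under 0.05, and lines are list medians. The median of the peptide hormones was -0.68 in the knockdown, and that of the exocytosis genes was 0.21 with apilimod and -0.24 with Torin-1.

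Markers of other cell types were read from 5 lists, and their part in the results was not tested. Of 8 acinar genes 1 was tested in the knockdown and not called, with summed levels of 2.53 to 4.12 CPM with sgNC and 4.17 to 5.39 CPM with sgPIKFYVE-1. Among the drug samples 2 were tested, and the sum was 94.3 to 104.9 CPM with DMSO, 101.3 to 108.3 CPM with apilimod and 137 to 144 CPM with Torin-1. PRSS1, a trypsinogen gene, rose with apilimod (1.21) and with Torin-1 (1.27), and its near-identical copy PRSS2 rose with Torin-1 (0.41). Of all genes, 5.75% were higher with apilimod and 16.6% with Torin-1. Of 8 ductal and epithelial genes, 3 rose and 1 fell in the knockdown, beside 21.6% and 20.9% of all genes. Their sums were 3033 to 3168 CPM with sgNC and 3070 to 3129 CPM with sgPIKFYVE-1. MUC1 (1.10) had the largest log2 fold change, SOX9 also rose and KRT7 fell (-0.56). With apilimod KRT8 rose (0.18) and KRT7 fell (-0.26) of 7 tested, beside 5.75% and 2.79% of all genes. With Torin-1 KRT18 rose (0.34) while KRT19 (-0.44) and KRT8 (-0.30) fell, beside 16.6% and 21.8% of all genes. The ductal and epithelial sums were 2090 to 2175 CPM in the drug table. The leukocyte list summed to 7.3 and 7.72 CPM with sgNC and to 17.2 and 19.2 CPM with sgPIKFYVE-1, nearly all of it LYZ. Of 5 leukocyte genes 2 were tested there, and LYZ rose (1.45), beside 21.6% of all genes. The stromal list summed to 10.1 and 10.4 CPM with sgNC and to 6.18 and 8.03 CPM with sgPIKFYVE-1. Of 6 stromal genes only COL1A1 was tested there, and it fell (-0.51), beside 20.9% of all genes. Among the drug samples only 1 leukocyte and 1 stromal gene were tested, and neither was called. The endothelial list summed to 1.06 to 4.72 CPM over all samples, and only 1 of its 4 genes was tested in each table, with no call.

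Over the 10 samples, after each table was centred on its control samples on log2(CPM + 1), the pattern of VGF was most like those of ANKZF1 (Pearson r = 0.996), OGDHL (0.995) and WASH2P (0.994), among 9841 genes that averaged 10 CPM or more in both tables. For CHGB, HNRNPDL (0.996) and GOLGA8B (0.995) came nearest. WASH2P and GOLGA8B belong to families of near-identical copies, so their levels are uncertain. Within the 10 genes, CHGB followed VGF (r = 0.977) and SCG2 followed PCSK1 (r = 0.97), whereas PCSK1 and PCSK2 did not move together (r = -0.011). These values describe 10 points that share 5 groups, 2 sequencing tables and their controls, and no p is given.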

How the data were processed

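RNA from 10 QGP-1 samples was sequenced by the authors. The labels describe enzymatic removal of ribosomal RNA and the study's methods oligo(dT) selection. Reads were demultiplexed with bcl2fastq 2.20, checked with FastQC, trimmed with Trimmomatic, quantified per transcript and summed to genes, and the submitters' processing notes name hg38. The quantifier and annotation are not given in the sources used here. For all of the 10 genes but SCG5 and SYP, the deposited ID version differs from that of GENCODE 29. Lengths and positions taken from that release may therefore differ from those used in counting. The authors deposited a signal close to CPM, in which estimated counts are divided by a TMM-scaled library size (calcNormFactors in edgeR), in 1 table for the knockdown and 1 for the drugs. Columns sum to 972493 to 1024332, whereas the planned design assumed plain CPM, and the planned test was kept. Between 65.1% and 68.9% of low values (up to 20 reads) were whole reads within 0.01 reads, so no count model was fitted. Depth comes from the spacing of low values and covers counting error only.

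Genes that averaged 1 CPM or more in a table (13591 in the knockdown, 13520 in the drug table) were tested on log2(CPM + 1), which understates changes of low genes, with limma 3.58.1 in R 4.3.3 (lmFit, eBayes with a trend, two-sided), Benjamini-Hochberg adjusted over all genes tested, at a threshold of 0.05. The drug fit shared the spread of 6 samples. The scripts were tested on simulated data. Replicates differed by more than sampling noise (median squared difference 1.8 to 2.45 times the Poisson expectation). Intervals of fold changes are 95%. Lengths and positions are from GENCODE 29, and a length covers the merged exons of all transcripts of a gene. All 10 genes are described. From each further list, up to 3 genes called with the largest absolute log2 fold change are named per comparison, and near patterns are given for the 2 genes with the largest changes (1 of these patterns is not reported here). INS, GCG and PPY were named after their values were seen. The 10 genes and the lists were chosen with earlier results of these data known.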

Additional observations from a re-analysis of the deposited data

Results flagged for a closer look

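Some of the 10 genes were called in opposite directions in 2 comparisons. Between apilimod and Torin-1, each against the same DMSO samples, the log2 fold change of SCG2 went from -0.33 to 0.45, a difference of 0.78 (limma, Torin-1 against apilimod, adjusted p = 1.82e-10), with 2 of 2 samples lower and 2 of 2 higher than both controls. PCSK1 went from -0.24 to 0.64, a difference of 0.87 (adjusted p = 1.22e-09), and CPE from -0.13 to 0.33, a difference of 0.46 (adjusted p = 2.75e-07), with the same counts of samples. The decrease of CPE with apilimod lost its call when any 1 sample was left out. Genes picked for opposite calls against shared controls are almost bound to differ directly, so these p-values add no separate evidence.

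Between the knockdown and Torin-1, VGF went from -0.85 to 0.54, a difference of 1.39, CHGB from -0.67 to 0.32, a difference of 0.994, and CPE from -0.33 to 0.33, a difference of 0.66. All 4 treated samples lay on opposite sides of their own controls for each gene. These differences run between tables normalized separately and between a stable knockdown and a drug, and they were not tested.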

How the results depend on the processing

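Results were recomputed with 0.1 as pseudocount, without the filter, with quantile normalization, with a replicate block, without the variance trend, on the compared groups alone, with changes of at least 1 log2 unit required, without each sample in turn and, chosen after seeing the data, with all samples rescaled to 1 common total. Of the values of the 10 genes and their medians under alternatives, 422 kept direction and side of the threshold, 21 lost and 11 gained a call, 10 changed sign and 9 medians moved. No gene called changed sign. With 2 samples a group and changes under 1 log2 unit, requiring 1 log2 unit left 0 of the 10 genes in each comparison, and 589 genes in the knockdown, 157 with apilimod, 278 with Torin-1 and 640 between the drugs.

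In the knockdown, 3709 genes passed without the trend, and SCG5 and SYP lost their calls without the filter or the trend. CHGA was at -0.00036 after quantile normalization and at -0.013 after rescaling. Leaving out 1 sample, CHGA ran from -0.044 to 0.10, SCG2 from -0.052 to 0.018, SCG3 from -0.12 to 0.0014 and PCSK1 from -0.0092 to 0.00078. With apilimod, no filter gave 1 of the 10 genes and 565 genes, no trend 0 and 466, and quantile normalization 5 of the 10, with PCSK2 at -0.011. Leaving out 1 sample gave 1 to 3 of the 10 and 596 to 833 genes, and CHGA from -0.12 to 0.022. Of all genes called with apilimod 778 were higher and 377 lower, against 658 and 536 after quantile normalization and 665 and 562 after rescaling. With Torin-1, SCG3 missed the threshold without the trend (adjusted p = 0.0554), and between the drugs SCG5 did so without the filter (0.0728) or the trend (0.0839). The causes were not tested.

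The replicate numbers pair no samples by the labels, and deviations of same-numbered samples correlated at 0.0017 in the knockdown and at 0.079, 0.08 and 0.264 in the drug table. A replicate block gave 5 of the 10 genes and 1756 genes with apilimod, adding SCG5 and VGF, and 9 of the 10 between the drugs, adding PCSK2. It changed no other call of the 10 genes.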
